A study of Macaca mulatta with 13 samples.

Results

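The cluster of miR-143 and miR-145 was followed across 13 small RNA libraries made from rhesus monkey vastus lateralis, a muscle of the thigh. The rows were chosen by name, as every row for miR-143 or miR-145 alone or with an arm, and 4 rows matched of 909 named miRNAs: miR-143-3p, miR-143-5p, miR-145-5p and miR-145-3p. The 8 CR libraries came from monkeys under caloric restriction and the 5 Control libraries from monkeys on the control diet. All groups share species, muscle and protocol, and the labels state neither a treatment beside the diet nor the age of the animals, the length of the restriction or its degree. A biopsy of this muscle holds muscle fibres, vessels, nerve and blood together.

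miR-143 and miR-145 are known as a pair of neighbouring genes that are transcribed together from one long RNA. In the T2T-MMU8v2.0 annotation of the rhesus genome MIR143 and MIR145 are also neighbours, with 0 genes between them. Both miRNAs are abundant in smooth muscle and are known in mouse and human vessels for holding smooth muscle cells in their contractile state, miR-145 by repressing the factors KLF4 and KLF5 and miR-143 by repressing ELK1. Cutting of each hairpin gives 2 arms, one of which usually dominates. The partners share a primary transcript but are cut out and degraded separately, and the question taken up here is whether their counts kept a fixed ratio across libraries and diets.

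Libraries held 1154326 to 5392611 counts in named miRNAs, with 397 to 476 miRNAs detected in each. Levels are given as CPM, counts set to one common library size with TMM factors, which adjust for a few miRNAs that fill a library. These factors ran from 0.624 to 1.76. Control replicate 4 stood apart: its summed skeletal muscle markers were at 13532 CPM, against 39228 to 80945 CPM in CR libraries and 52321 to 58717 CPM in the other Control libraries. Fold changes, ratio differences and Pearson correlations among the tested rows of the cluster are given with and without it. The correlations with the lists of cell type markers all include it. So do the group means of levels, the ratios of other miRNA pairs and the red blood cell and neuronal medians.

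The cluster was led by the 3p arm of miR-143. Over the 13 libraries miR-143-3p took 97.33% of the cluster's counts, miR-145-5p 2.63%, miR-145-3p 0.03493% and miR-143-5p 0.008008%. In single libraries the part of miR-143-3p stayed between 96.3% and 98.4% and that of miR-145-5p between 1.59% and 3.63%. By mean level miR-143-3p ranked 5th of the 909 named miRNAs and miR-145-5p 48th. Counts of different miRNAs depend on ligation as well as on abundance, so these orders are orders of counts.

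All rows of the cluster together took 2.34% ± 1.28 (SD, n = 8) of named miRNA counts in CR and 2.92% ± 1.61 (SD, n = 5) in Control. Without the rows of miR-486, the most abundant miRNA of the table, these shares were 5.58% ± 2.63 in CR and 6.19% ± 2.49 in Control. The lowest share of all named counts was 0.926% in CR replicate 8 and the highest 5.26% in Control replicate 4. Without Control replicate 4 the difference of the group means, CR minus Control, was 0.007 percentage points, against -0.579 with it.

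The main product, miR-143-3p, had a lowest level of 13037 CPM, a median of 19456 CPM and a highest level of 44514 CPM (CR replicate 5) in the 8 CR libraries, against 24471, 10651, 17542, 28898 and 41571 CPM in Control replicates 1 to 5. The groups overlapped, and the highest and the lowest library of all were CR replicate 5 and Control replicate 2. The means were 23185 ± 10462 CPM in CR (SD, n = 8) and 24627 ± 11735 CPM in Control (SD, n = 5). Its log2 fold change, CR over Control, was -0.087 ± 0.33 (SE; 95% interval -0.78 to 0.60), and edgeR's quasi-likelihood test gave an adjusted p of 0.985. The sign turned without Control replicate 5 (0.11) or CR replicate 4 (0.0028), and the value was -0.023 without Control replicate 4, -0.29 without CR replicate 5 and -0.28 without Control replicate 2.

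The partner miR-145-5p had a lowest level of 352 CPM and a highest of 1096 CPM in CR, with the middle libraries at 455 and 477 CPM, against 803, 330, 550, 988 and 716 CPM in Control replicates 1 to 5. Its highest level was again in CR replicate 5 and its lowest in Control replicate 2, as for miR-143-3p. The means were 567 ± 259 CPM in CR and 678 ± 250 CPM in Control. The log2 fold change was -0.26 ± 0.31 (SE; 95% interval -0.90 to 0.39; edgeR adjusted p 0.985). It was -0.081 without Control replicate 4, -0.47 without CR replicate 5, -0.43 without Control replicate 2 and -0.40 without CR replicate 2, each also past no threshold.

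**Figure D1:**
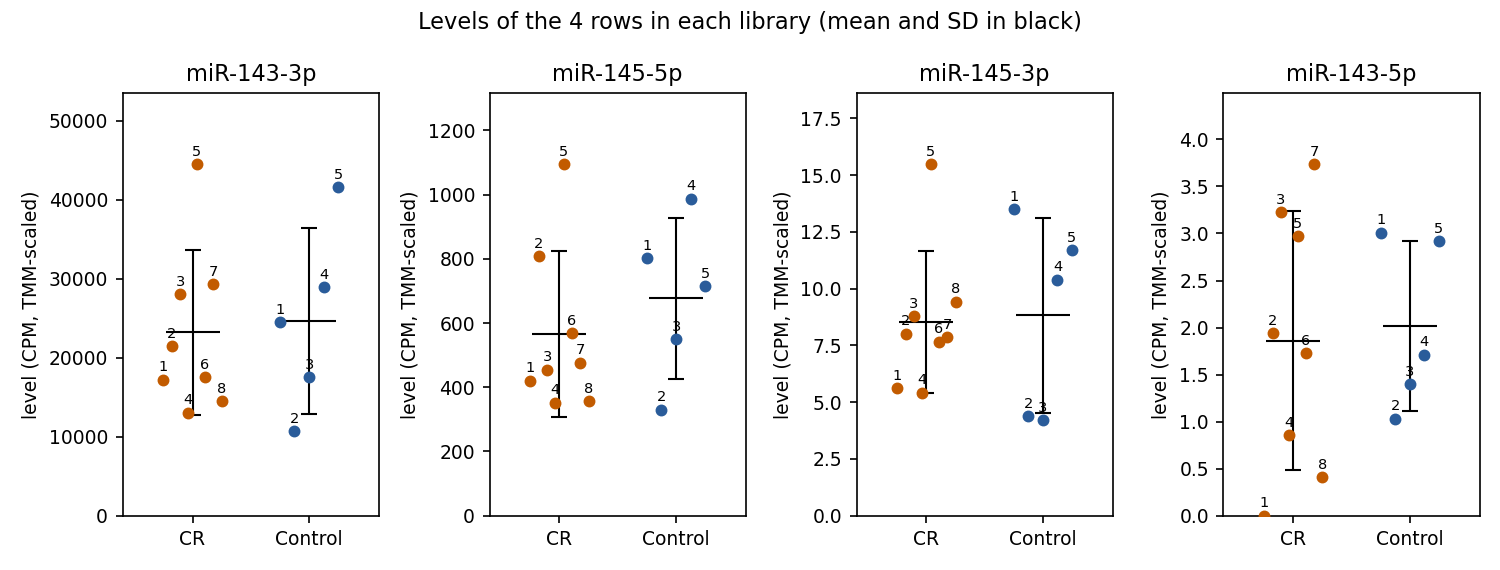
Levels (CPM with TMM factors, linear axes from 0) of the 4 rows of the cluster in each CR library (orange) and Control library (blue), with replicate numbers beside the points and the group mean and SD in black. For miR-143-3p, miR-145-5p and miR-145-3p CR replicate 5 is the highest of all libraries, and the groups overlap in every panel.

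The minor arm of miR-145, miR-145-3p, had 10 to 52 counts in CR libraries and 15 to 85 in Control libraries. Its level ran from 5.42 CPM over a median of 7.93 CPM to 15.5 CPM in CR, against 13.5, 4.38, 4.2, 10.4 and 11.7 CPM in Control replicates 1 to 5. Here too the groups overlapped, and CR replicate 5 was the highest library. The log2 fold change was -0.039 ± 0.36 (SE; 95% interval -0.79 to 0.71; edgeR adjusted p 0.985), and its sign turned when CR replicate 4 (0.043), Control replicate 1 (0.080) or Control replicate 4 (0.039) was left out.

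The minor arm of miR-143, miR-143-5p, was close to the limit of these libraries and did not pass the filter on low counts. It had 0 to 20 counts in CR libraries and 4 to 14 counts in Control libraries. The library at 0, CR replicate 1, was the shallowest, and its 0 allows up to 3 counts, or 1.69 CPM on the scaled level. Over all libraries miR-143-5p made up 94 of 1142481 counts of both arms, or 0.00823%.

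Of the 4 rows, 3 passed the filter on low counts and 0 were called by edgeR at an adjusted p under 0.05, where 0% of all 263 miRNAs tested were called. At an unadjusted p under 0.05 edgeR found 7 miRNAs, or 2.66%, and none of them was a row of the cluster. DESeq2 and limma-voom also called 0 miRNAs, with 7 each at the unadjusted threshold. Between libraries, miR-143-3p had an SD of 0.63 on the log2 CPM scale, miR-145-5p 0.58 and miR-145-3p 0.55, where the median over all 263 miRNAs was 0.56. Of the 263 miRNAs, 161 varied less than miR-143-3p, 143 less than miR-145-5p and 128 less than miR-145-3p.

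The partners did not keep a fixed ratio of counts. The ratio of miR-143-3p to miR-145-5p was 40.9, 26.5, 61.7, 37.0, 40.6, 30.7, 61.4 and 40.6 in CR replicates 1 to 8, against 30.5, 32.3, 31.9, 29.3 and 58.0 in Control replicates 1 to 5. CR replicates 3 and 7 and Control replicate 5 formed a high group near 60, and in Control the other 4 libraries lay within 29.3 to 32.3. Counting error is far smaller than this: the 95% exact binomial interval was 57.9 to 65.8 in CR replicate 3 and 25.6 to 27.5 in CR replicate 2. The chi-square of the pair's counts was 193 per degree of freedom over the 13 libraries, where counting error alone gives about 1. These intervals cover counting error only, since PCR copies are not independent molecules.

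**Figure D2:**
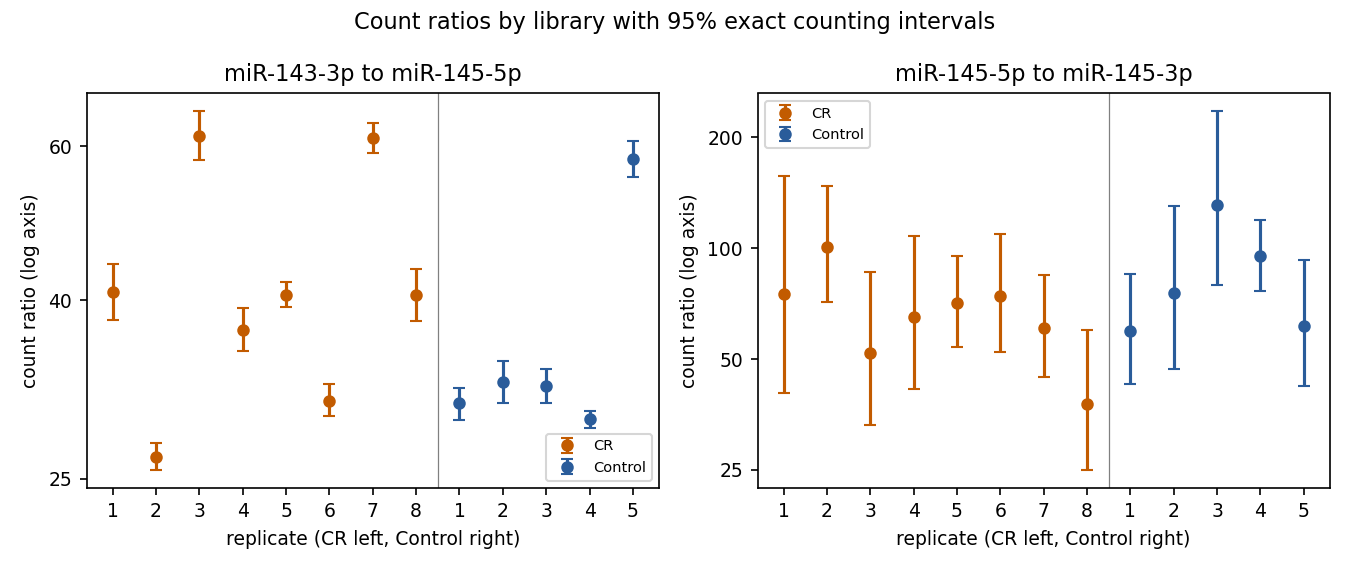
Count ratios by library on log axes, CR replicates 1 to 8 left and Control replicates 1 to 5 right, with 95% exact binomial counting intervals. The ratio of miR-143-3p to miR-145-5p (left panel) lies near 60 in CR replicates 3 and 7 and Control replicate 5, with intervals that do not reach those of the other libraries, while the wide intervals of miR-145-5p to miR-145-3p (right panel) overlap for most libraries.

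The 3 libraries with the high ratio differed in depth. CR replicate 3 and Control replicate 5 were among the shallower libraries and CR replicate 7 among the deeper. They held 2727735, 4868290 and 2595216 named counts (CR replicates 3 and 7 and Control replicate 5). Their miR-143-3p was among the 5 highest levels, at 28046, 29296 and 41571 CPM, while their miR-145-5p was at 455, 477 and 716 CPM. The part of depth in the ratio was not tested.

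The ratio did not differ between diets beyond the spread of the libraries. Its geometric mean was 40.8 in CR and 35.1 in Control, and the medians were 40.6 and 31.9. On the log2 scale the ratio was 5.35 ± 0.43 in CR (SD, n = 8) and 5.13 ± 0.41 in Control (SD, n = 5). The difference of 0.22 (95% interval -0.32 to 0.74, from the same test) gave a two-sided exact permutation p of 0.382, also 0.382 adjusted over the 2 ratios tested. With 8 libraries against 5 the smallest p this test can give is 0.000777. Without Control replicate 5 the difference was 0.40 (exact permutation p 0.0949), without CR replicate 3 it was 0.13 (p 0.559) and without CR replicate 7 it was 0.13 (p 0.561). Leaving out Control replicate 4 gave a difference of 0.15 (exact permutation p 0.533).

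The arms of miR-145 were compared in the same way. There were 63.3 counts of miR-145-5p for each of miR-145-3p in CR and 79.1 in Control (geometric means), with single libraries from 37.8 to 101 in CR and from 59.4 to 131 in Control. The log2 difference was -0.32 (95% interval -0.87 to 0.23; two-sided exact permutation p 0.232, adjusted over the 2 ratios 0.382). Without Control replicate 3, whose ratio of 131 rests on 15 counts of the minor arm, the difference was -0.15. It was also -0.21 without CR replicate 8 and -0.26 without Control replicate 4 (exact permutation p 0.37 for the latter). The chi-square was 2.61 per degree of freedom, where counting error alone gives about 1. This measure grows with the counts, so it cannot rank this ratio against that of miR-143-3p to miR-145-5p. The SD over the 13 libraries was 0.449 for the arms and 0.417 for the main pair (log2 scale).

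Although the ratio varied, the partners moved together. Over the 13 libraries the log2 CPM of miR-143-3p and miR-145-5p gave a Pearson r of 0.764 (permutation p 0.00305) and a Spearman rho of 0.769 (permutation p 0.00291), each 0.0061 adjusted over 6 values (2 measures for each of 3 pairs of rows). In the 8 CR libraries alone r was 0.736 (exact permutation p 0.0353, adjusted 0.0706), and the 5 Control libraries are too few for a value. Without the pair of libraries farthest from the median of miR-143-3p, CR replicate 5 and Control replicate 2, r was 0.606 (permutation p 0.0501, adjusted 0.0917), so that the strength of the relation rests in part on these libraries. Without Control replicate 4 it was 0.765. All points share the scaling factor of their library.

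The minor arm miR-145-3p was set beside both main arms in the same way. Over the 13 libraries its Pearson r with miR-143-3p was 0.780 (permutation p 0.00203, adjusted 0.0061) and with miR-145-5p 0.708 (permutation p 0.00818, adjusted 0.00983), and the Spearman rho was 0.709 and 0.670 in turn (adjusted 0.00983 and 0.0153). Without CR replicate 5 and Control replicate 2 the first r was 0.620, and without CR replicate 5 and Control replicate 4 the second was 0.580 (both adjusted 0.0917, permutation test). Leaving out Control replicate 4 alone gave 0.771 for the first r and 0.704 for the second. In the 8 CR libraries alone r was 0.759 with miR-143-3p (exact permutation p 0.0300, adjusted 0.0706) and 0.702 with miR-145-5p (exact permutation p 0.0548, adjusted 0.0822). There the Spearman rho was 0.571 with miR-143-3p (exact permutation p 0.151) and 0.476 with miR-145-5p (exact permutation p 0.243), against 0.810 for the main pair (exact permutation p 0.0218, adjusted 0.0706). The row has 10 to 85 counts a library, and whether its correlations differ from each other was not tested.

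**Figure D3:**
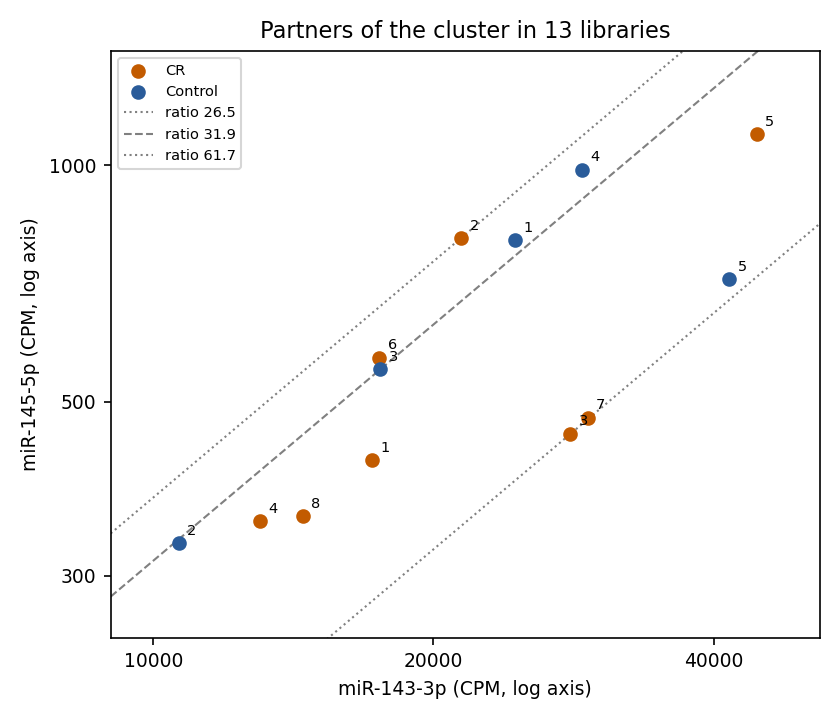
Level of miR-145-5p against miR-143-3p (CPM, log axes) in 8 CR libraries (orange) and 5 Control libraries (blue), labelled by replicate. The lines mark ratios of 26.5 and 61.7 (the lowest and highest, both in CR) and 31.9 (the Control median). Libraries spread along the lines over about 4-fold of miR-143-3p, with CR replicates 3 and 7 and Control replicate 5 at the lower line.

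The ratio was set beside those of other miRNA pairs as a description. Its SD over the 13 libraries was 0.417 on the log2 scale. The median SD was 0.859 over all 34453 pairs of the 263 tested miRNAs, and 3.87% of these pairs had a smaller one. Among the 99 miRNAs with a mean of at least 100 CPM, where counting error is small, the median was 0.657 and 12.9% of pairs had a smaller SD. Seen from miR-143-3p, miR-145-5p ranked 4th of 262 other miRNAs by the smallest SD of the ratio and 4th by correlation. Seen from miR-145-5p, miR-143-3p ranked 4th and 3rd.

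Other neighbouring miRNA genes give a yardstick for partners of a shared locus. Of 24 such pairs, 21 had both members among the tested miRNAs and are neighbours in the T2T-MMU8v2.0 annotation. Their median SD of the log2 ratio was 0.455, with 8 pairs steadier than miR-143-3p with miR-145-5p and 13 less steady. Some less steady pairs held a sparse member: miR-20a-5p had 315 counts over all libraries, miR-379-5p 274, miR-212-3p 146 and miR-183-5p 383. In the steadier pairs every member had at least 1942 counts. The SDs of the sparse pairs hold counting error, and the split was not repeated for abundant miRNAs alone. The steadiest was miR-181a-5p with miR-181b-5p (SD 0.125), followed by miR-15a-5p with miR-16-5p (0.231). The muscle pairs miR-206 with miR-133b-3p (0.479) and miR-1-3p with miR-133a (0.688) varied more, and so did miR-19b with miR-92a-3p (1.23), where miR-19b had only 268 counts in all. Several of these miRNAs have a further gene copy elsewhere. The arms of one hairpin give a further set of pairs. In 52 other hairpins with both arms tested the SD of the arm ratio ran from 0.0756 to 1.06 with a median of 0.492, and 19 had an SD under 0.417. For the arms of miR-145 it was 0.449. Several minor arms have few counts, such as 146 for let-7f-3p and 149 for miR-221-5p over all libraries, so these SDs hold counting error and were not tested against those of neighbouring genes.

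**Figure D4:**
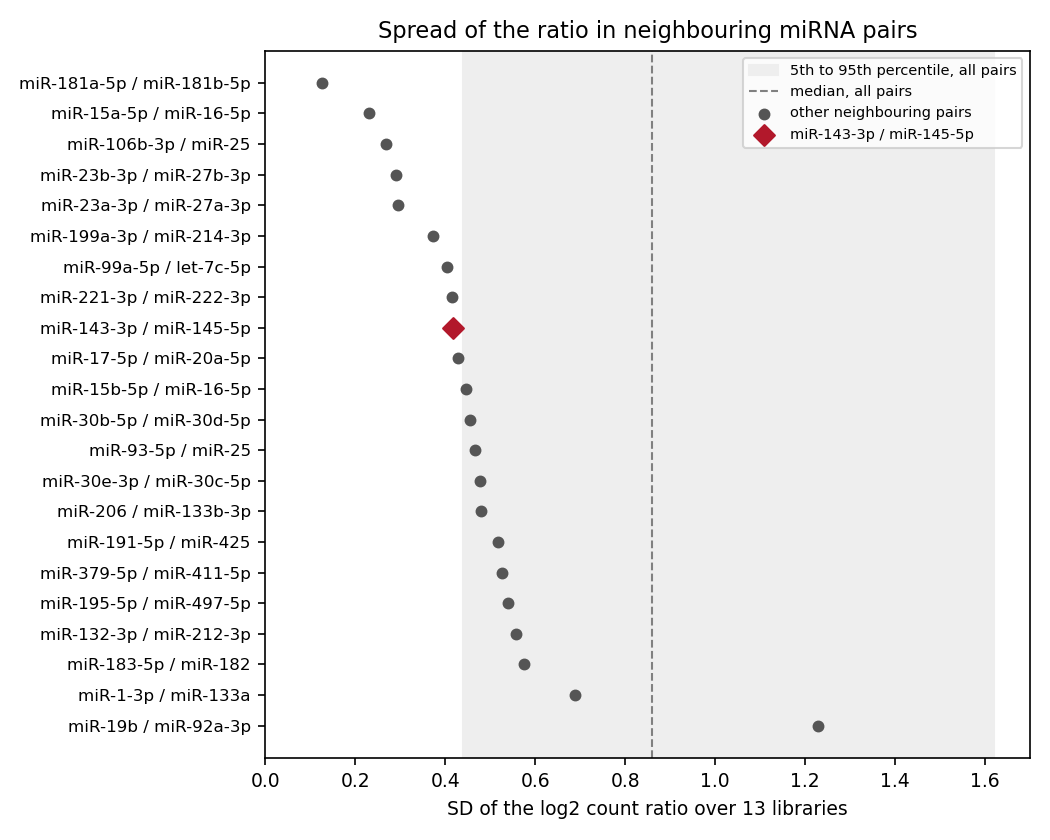
SD of the log2 count ratio over 13 libraries for 21 pairs of neighbouring miRNAs (grey points) and for miR-143-3p with miR-145-5p (red diamond, 0.417). The dashed line is the median of all pairs of tested miRNAs (0.859) and the shaded band runs from the 5th to the 95th percentile of all pairs (0.44 to 1.62).

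The miRNAs with the most similar pattern to miR-143-3p over the 13 libraries, by Pearson r of log2 CPM, were miR-126 (0.830), miR-145-3p (0.780), miR-10a-5p (0.771), miR-145-5p (0.764) and miR-146a-5p (0.690). miR-126 is an endothelial miRNA, and its row carries no arm in the table. For miR-145-5p they were miR-452-5p (0.786), miR-139-5p (0.780), miR-143-3p (0.764), miR-195-5p (0.755) and miR-1247-5p (0.733). Without Control replicate 4 miR-126 remained 1st for miR-143-3p (0.824), and miR-139-5p came 1st (0.804) and miR-143-3p 2nd (0.765) for miR-145-5p. miR-10a-5p was at 6016 ± 1469 CPM in CR (SD, n = 8) and 5868 ± 2155 CPM in Control (SD, n = 5). The row first for miR-145-5p, miR-452-5p, was at 3.17 ± 2.82 CPM in CR and 5.17 ± 3.60 CPM in Control, with 11.3 CPM in Control replicate 4. None of these miRNAs passed the edgeR test (adjusted p 0.985, and 0.997 for miR-146a-5p).

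Rows used as markers of the vessel's other cells and of muscle fibres stand beside the cluster here. Of these, miR-221-3p and miR-222-3p also stand in the smooth muscle growth list below. The 3 endothelial rows, miR-126, miR-221-3p and miR-222-3p, had a summed level of 408 to 776 CPM in CR and 485 to 938 CPM in Control, the highest in Control replicate 4. All 3 had lower fitted levels in CR (median log2 fold change -0.21, against 0.0103 over all miRNAs tested), 0 passed the edgeR test, and without Control replicate 4 the split was 2 lower and 1 higher with a median of -0.055. With miR-143-3p their r was 0.830, 0.672 and 0.195 in the order named, and with miR-145-5p 0.638, 0.703 and 0.524. The 4 fibroblast rows (miR-199a-3p, miR-199a, miR-214-3p and miR-214-5p) were lower in CR for 4 of 4 with 0 called (median -0.42). This median was -0.094 when Control replicate 4 was left out, -0.68 when CR replicate 2 was and -0.70 when Control replicate 5 was, and with the sample number of the titles as a covariate the split was 2 higher and 2 lower (median -0.025). Their summed level, at 487 to 1636 CPM in CR and 718 to 2048 CPM in Control, was again highest in Control replicate 4, and their r was -0.121 to 0.163 with miR-143-3p and 0.217 to 0.354 with miR-145-5p. In bulk tissue fewer cells of a type and less RNA per cell cannot be told apart, and the part of vessel content in the levels of the cluster was not tested.

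The skeletal muscle rows gave lower correlations with miR-145-5p than with miR-143-3p, a difference that was not tested. For miR-133a and miR-133b-3p r was -0.636 and -0.621 with miR-145-5p and -0.409 and -0.332 with miR-143-3p. For miR-1-3p and miR-206 it was -0.482 and -0.424 with miR-145-5p and -0.104 and -0.00536 with miR-143-3p. The 2 rows of low level, miR-499-5p and miR-208b-3p, were near 0 with miR-145-5p (0.00944 and -0.0199) and above 0 with miR-143-3p (0.350 and 0.246). In Control replicate 4 miR-133a was at 12644 CPM and miR-133b-3p at 289 CPM, against means of 48853 and 912 CPM over all libraries. Its miR-145-5p, at 988 CPM, was among the highest. All r of the muscle rows include this library, and how far they rest on it was not tested. The summed level of all 6 rows was 39228 to 80945 CPM in CR and 13532 to 58717 CPM in Control. Of these 6 rows 6 had a higher fitted level in CR (median 0.42, 0 called), but 3 of 6 without Control replicate 4 (median 0.17) and 4 of 6 without CR replicate 1 (median 0.15). Leaving out Control replicate 1 gave a median of 0.70, and leaving out Control replicate 5 gave 0.68. Red blood cell markers (miR-451 and miR-144) summed to 135 to 1510 CPM in CR and 138 to 1386 CPM in Control, leukocyte markers to 192 to 693 CPM in CR and 281 to 604 CPM in Control, and neuronal markers to 7.29 to 78.8 CPM in CR and 4.78 to 37.9 CPM in Control, with miR-124a-3p at 5 counts in all libraries together. Of the leukocyte rows 3 of 3 tested and of the red blood cell rows 1 of 1 were lower in CR (medians -0.24 and -0.16), 2 of 2 neuronal rows were higher (median 0.86), and 0 were called. These directions moved with single libraries. The leukocyte split was 2 lower and 1 higher without Control replicate 4 or Control replicate 1, and its median ran from -0.61 (without CR replicate 3) to -0.13 (without CR replicate 1). The red blood cell row was at -0.45 when CR replicate 6 was left out and at 0.10 when Control replicate 5 was. The neuronal median was 0.35 with 1 row lower when CR replicate 4 was left out, and 1.39 when Control replicate 1 was.

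**Figure D5:**
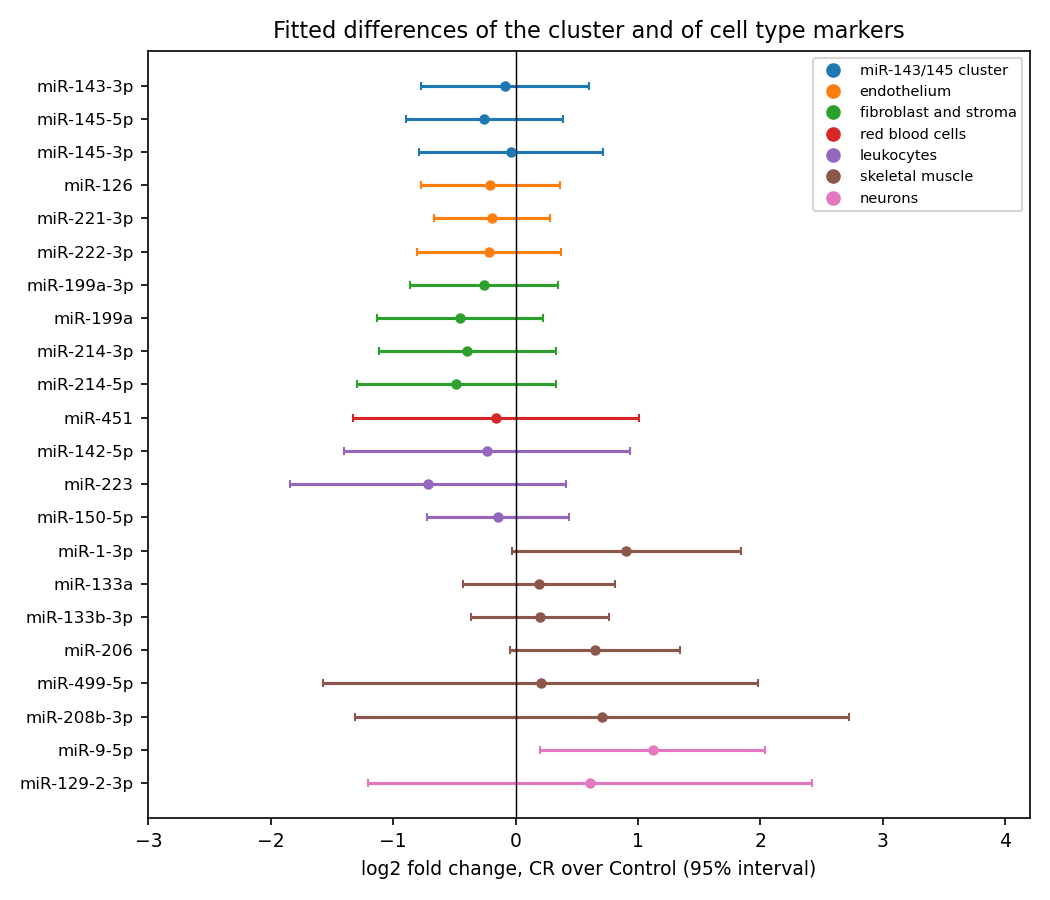
Log2 fold changes, CR over Control, with 95% intervals (edgeR, 8 CR and 5 Control libraries) for the 3 tested rows of the cluster and for the tested markers of other cell types. The intervals of the cluster include 0 and reach from about -0.90 to 0.71, and no row shown passed the adjusted threshold.

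Other miRNAs known from the smooth muscle phenotype were split by role. Those tied to the contractile state (miR-1-3p, miR-133a, miR-23b-3p and miR-10a-5p) were higher in CR by the fit for 4 of 4 (median 0.16), 2 of 4 without Control replicate 4 (median 0.022) and 1 of 4 with library totals alone (median -0.076). Those tied to growth of smooth muscle cells (miR-21-5p, miR-221-3p, miR-222-3p, miR-24-3p, miR-26a-5p, miR-31-5p and miR-146a-5p) were lower in CR for 5 of 7 (median -0.026), for 3 of 7 without Control replicate 4 (median 0.030) for 3 of 7 without Control replicate 5 (median 0.035) and for 7 of 7 with library totals alone (median -0.30). EdgeR called 0 of these 11. The median over all tested miRNAs moved too, from 0.0103 in the main fit to 0.060 without Control replicate 4 and 0.0043 without Control replicate 5. Both lists were thus below the median of all miRNAs when Control replicate 4 was left out. Since miR-221-3p and miR-222-3p are also in the endothelial list, and miR-1-3p and miR-133a in the skeletal muscle list, these lists are not separate from those. With library totals alone the median over all tested miRNAs was -0.26 (log2), and relative to that shift miR-143-3p (-0.31) and miR-145-3p (-0.32) were near it and miR-145-5p (-0.54) below it. miR-1-3p and miR-133a are best known from skeletal muscle fibres, and the part of fibre content in these values was not tested.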

How the data were processed

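The authors deposited one table of raw counts per miRNA row and library, whole numbers with no scaling by their values. Per the labels' protocols, small fragments isolated on a gel from Trizol RNA went into TruSeq small RNA libraries with single-end reads. The submitters' processing notes name the build Mmul_8.0.1, and for the aligner and counter a name is not given in the sources used here. Of rows sharing a name the highest total was kept (67 names, none in the cluster), 3 pairs of names differing by at most 1% were merged, and 702 loci named by position were left out. Counts were tested with edgeR 4.0.16 in R 4.3.3 (robust quasi-likelihood fit, TMM, filterByExpr), with Benjamini-Hochberg adjustment over 263 miRNAs and a threshold of 0.05. These held at least 99.959% of each library's named counts. Ratios used counts plus 0.5 and a two-sided exact permutation test, and log2 CPM a prior count of 2. Correlations used 100000 permutations, or all of them in CR alone. The interval of a fold change is the estimate and its SE with the t quantile of the fit, and that of a ratio inverts its permutation test. Alternatives were DESeq2 1.42.0, limma-voom 3.58.1, other scalings and filters, covariates, and leaving out each library. The tests were checked on simulated data. Named miRNAs are all rows of the cluster, the 5 most correlated with each main arm, and marker lists; examples of neighbouring pairs were chosen after their values were seen. The members and lists were chosen with earlier results of these data known. The most alike libraries of a group differed by a chi-square of at least 186 per degree of freedom, so none was a second deposit of a library of its own group. Libraries of different groups were not compared in this way. No label states that the libraries come from separate animals, so p-values measure the spread between these samples, which may be technical.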

Additional observations from a re-analysis of the deposited data

Results flagged for a closer look

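Among 12 sets of values looked at (4 levels and 2 ratios in each group), 2 held a library far from the rest of its group. The rule is made to mark about 1 set in 20 by chance among independent sets. These sets share counts, since the ratios use the counts of the levels, so the 2 marks were not tested against chance. The ratio of miR-143-3p to miR-145-5p was 58.0 in Control replicate 5, against 29.3 to 32.3 in the other 4 Control libraries. In CR, replicates 3 and 7 were as high (61.7 and 61.4). The level of miR-145-3p was 15.5 CPM in CR replicate 5, against 5.42 to 9.43 CPM in the other 7 CR libraries, and this level rests on 52 counts.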

How the results depend on the processing

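The count of miRNAs past the threshold was 0 under each of 23 alternatives, with 2 to 14 at an unadjusted p under 0.05 when single libraries were left out, and 28 of 612 with no filter. The log2 fold change of miR-145-5p stayed below 0 throughout (-0.466 to -0.0814 over libraries left out). That of miR-143-3p turned to 0.0295 with the replicate number as a block, and ran from -0.292 to 0.109 over libraries left out (above 0 without Control replicate 5 and CR replicate 4). That of miR-145-3p turned to 0.076 with limma-voom and 0.0327 with the block, and was -0.321 with library totals alone. Over libraries left out it ran from -0.22 to 0.0797. The row of miR-145-3p did not pass a mean of 10 CPM. The ratio differences kept their signs (0.132 to 0.399 and -0.429 to -0.151), also within the replicate block (0.183 and -0.192). CR replicates 6, 7 and 8 have no Control library of the same number. They therefore add nothing to any difference taken within the block, including the fold changes with the block above. The Pearson r of miR-143-3p with miR-145-5p ran from 0.687 to 0.815 over libraries left out and was 0.868 with library totals alone. It was 0.606 (p 0.0501) without the 2 farthest libraries, by permutation test, where fewer libraries remain. The SD of the ratio ran from 0.38 to 0.436, and the share of steadier pairs was 12.9% in place of 3.87% for abundant miRNAs, an alternative added after seeing the data, as were the shares without miR-486 and the list counts under alternatives. Libraries of equal replicate number showed no sign of pairing (r of deviations -0.239 to -0.0474), and 0 of 5 Control libraries correlated best with their own number. So few values cannot exclude a pairing. Depth limits miR-143-5p and miR-145-3p.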
